A study of Sus scrofa with 12 samples.

Results

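The transcripts described here are complement components, given by 10 gene symbols: C1QA, C1QB, C1QC, C1S, C2, C3, C5, C6, C7 and CFB. A probe set was a member where the platform annotation gave 1 of these symbols as its only symbol. This found 8 genes with 10 probe sets, among 6765 named genes and 23999 probe sets tested. C7 and CFB had 2 probe sets each, and for those genes the probe set with the higher mean over all sows stands for the gene. C1QB and C6 were not analysed here.

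The endometrium came from 12 sows slaughtered on Day 14 after insemination, with 1 array per sow. The pregnant group held 3 Landrace sows (6, 8 and 10) and 3 Yorkshire sows (2, 4 and 12). The non-pregnant group held 3 Landrace sows (5, 7 and 9) and 3 Yorkshire sows (1, 3 and 11), all of them also inseminated, but with inactivated semen. Both uterine horns were rinsed with saline that contained fetal calf serum before the tissue, without its muscle layer, was taken, so conceptus tissue that remained attached would be measured with it. Values are log2 expression values of the authors, and a difference of 1 is a doubling.

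Complement is a set of serum and tissue proteins that act in a cascade against microbes and damaged cells. The classical pathway starts when C1q binds an antibody or another surface and its partner proteases C1r and C1s cut C4 and C2. The alternative pathway runs on C3 and factor B. Both arrive at the cleavage of C3, and the terminal pathway from C5 to C9 assembles a pore in the target membrane. The liver makes most of the plasma pool, but macrophages are a main source of C1q, and uterine epithelium is known to make C3 under oestrogen control in rodents. Regulators on cell surfaces, such as CD46, CD55 and CD59, limit the cascade on the body's own cells.

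The measured members differed widely in how far they stood above background. C1QA, C1QC, C1S and C3 lay above the median of every array, and C2 and the C7 probe set that stands for the gene lay above it on 4 and 6 of 12 arrays. The remaining 4 probe sets (C5, the second C7 probe set and both of CFB) were dim, which here means that fewer than 3 arrays had a value above 6.29, the median of the whole table. C5 lay below the lower quartile of all 12 arrays, so its differences are close to background.

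Over the probe sets, which are not independent of each other, each array had r of 0.975 to 0.992 with the array most like it. Non-pregnant sow 7, a Landrace, had the lowest of these, 0.975, and also stood apart in the values that are compared below. It had the highest value of all 12 sows in 6 of the 10 member probe sets, against 10.3% of all probe sets, and the highest of the non-pregnant sows in 8 of 10. Its mean over 7 measured macrophage marker genes was 8.23. The pregnant sows had 6.56 to 6.78 and the remaining non-pregnant sows 6.34 to 6.38. All 7 of these genes were highest in sow 7, and 2 of them, CD14 and FCGR1A, were dim. Its mean over 6 T and NK cell marker genes was 6.99, beside 5.51 to 6.02 for pregnant sows and 5.30 to 5.64 for the remaining non-pregnant ones. Epithelial markers, which define the tissue labelled, averaged 9.62 to 10.4 in pregnant and 9.97 to 10.3 in non-pregnant sows, and none of the 8 genes was dim. In bulk tissue, more cells of a type and more RNA per cell cannot be told apart.

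Over all 12 sows 0 of 10 member probe sets passed the test for pregnancy, where 7.88% of all probe sets did, so the 0 does not set the members apart. The differences of the classical pathway genes and C3 ran from 0.33 to 0.93. With non-pregnant sow 7 left out, C1S, C2 and C3 were called higher in pregnant sows, where 4.61% of all probe sets were. Sow 7 was the highest non-pregnant sow in each of these genes, so its omission raises their differences by construction. Of the terminal and alternative pathway genes, C7 differed by 0.21 and the dim C5 and CFB by no more than 0.14 in size.

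**Figure D1:**
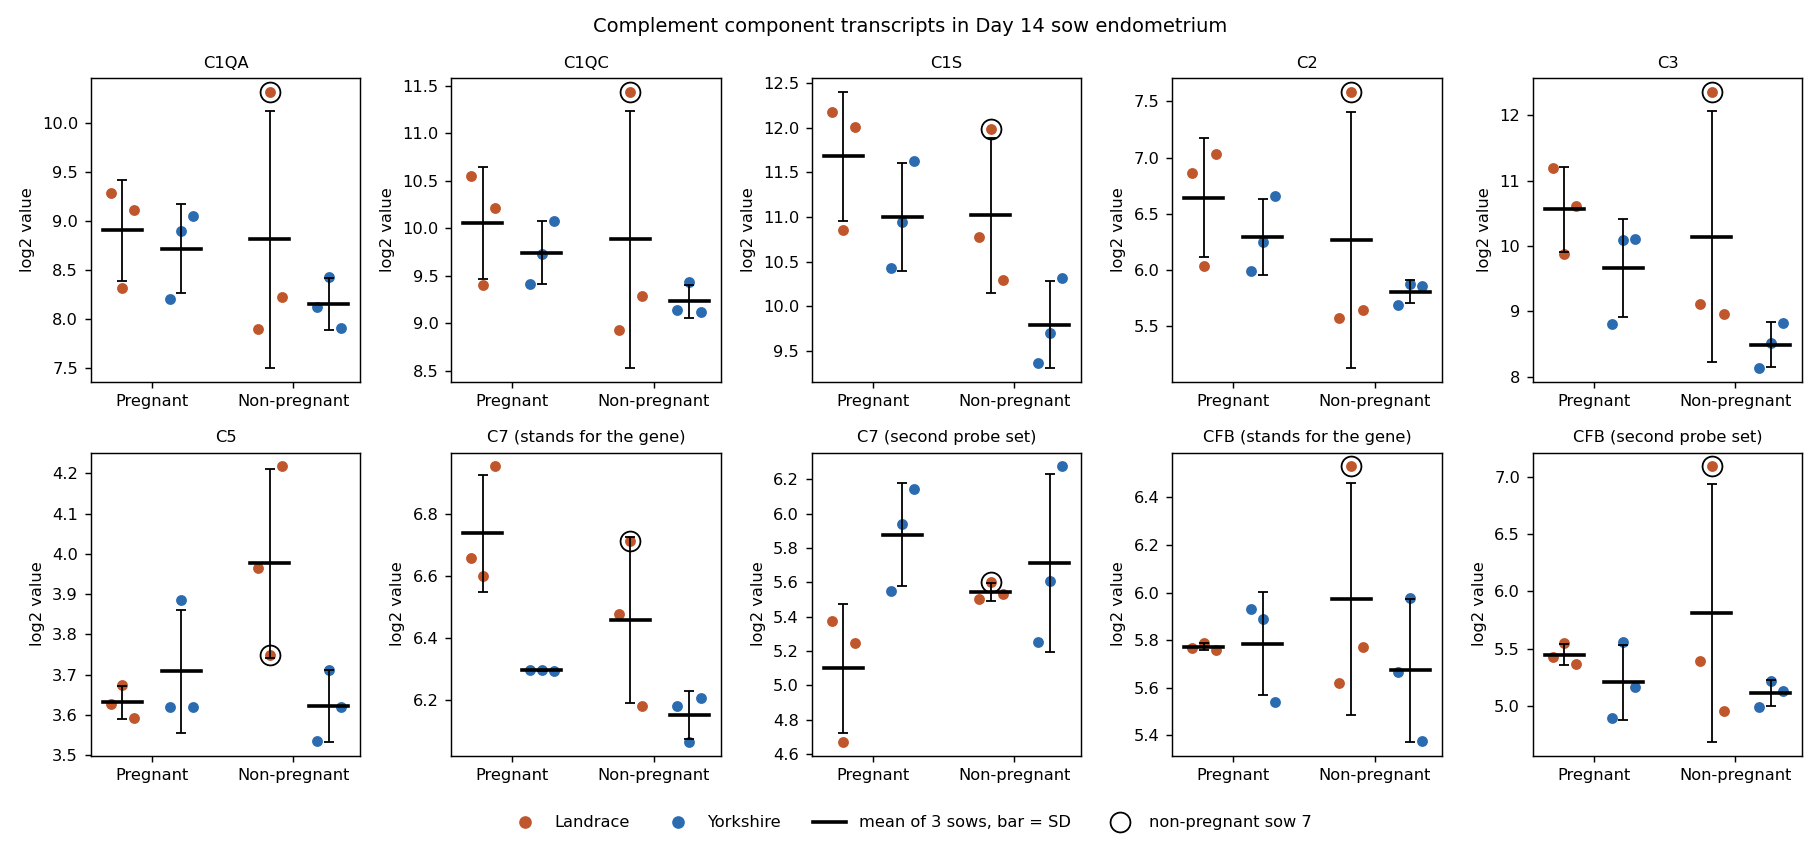
Log2 expression values of the 10 complement component probe sets in each of the 12 sows, with pregnant sows left of non-pregnant sows and Landrace (orange) left of Yorkshire (blue). Bars are the mean and SD of 3 sows, and the ring marks non-pregnant sow 7, which lies highest in 6 panels, C3 at 12.35 among them.

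C1QA and C1QC encode chains of C1q, the recognition molecule of the classical pathway, and are immediate neighbours in the pig annotation, next to C1QB. C1QA was 9.28, 8.32 and 9.11 in pregnant Landrace and 8.20, 8.90 and 9.05 in pregnant Yorkshire sows. In non-pregnant sows it was 7.90, 10.31 and 8.23 in Landrace, the middle value being sow 7, and 8.12, 8.43 and 7.91 in Yorkshire. The pregnant and non-pregnant ranges overlapped even without sow 7, because pregnant sows 8 and 2 lay among the non-pregnant values. The difference was 0.33 ± 0.36 (SE, limma adjusted p = 0.661), and 4 of 6 pregnant sows lay above the non-pregnant mean. C1QC averaged 9.90 ± 0.46 for pregnant sows and 9.56 ± 0.93 for non-pregnant ones (n = 6 per group, SD), a difference of 0.34 ± 0.36 (SE, limma adjusted p = 0.646).

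Without sow 7 the C1QA difference was 0.69 ± 0.20 (SE, limma adjusted p = 0.0562) and that of C1QC 0.71 ± 0.20 (adjusted p = 0.0503), both just short of the threshold of 0.05. An omission of the highest value in the non-pregnant group raises any such difference by construction, here and in what follows. The macrophage list mean did not overlap between pregnant sows and the other 5 non-pregnant sows, at 6.56 to 6.78 against 6.34 to 6.38. Its genes did not move alike. The brighter CD163 probe set was 6.69 to 7.57 in pregnant sows and 7.12 to 7.56 in these 5 sows. AIF1 was 7.05 to 8.91 and 6.59 to 7.27, and MRC1 was 6.12 to 6.69 and 6.04 to 6.46. The brighter CD14 probe set, which was dim, was 5.72 to 6.68 and 4.92 to 5.40, with every pregnant sow higher. The part of the macrophage list in the C1q differences was not tested.

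C1S encodes the protease of the C1 complex that cuts C4 and C2. It was 12.18, 10.86 and 12.001 in pregnant Landrace and 10.43, 10.94 and 11.63 in pregnant Yorkshire sows. It was 10.78, 11.98 and 10.30 in non-pregnant Landrace and 9.36, 9.71 and 10.32 in non-pregnant Yorkshire sows. The Yorkshire groups, of 3 sows each, did not overlap, with all pregnant sows higher, and in Landrace sow 7 lay within the pregnant range. The share of all probe sets without overlap within a breed was not counted, and no member was called within a breed. C1S averaged 11.34 ± 0.70 for pregnant sows and 10.41 ± 0.92 for non-pregnant ones (n = 6 per group, SD), a difference of 0.93 with a 95% confidence interval of 0.21 to 1.65. All 6 pregnant sows lay above the non-pregnant mean, but the adjusted p of 0.109 (limma) did not pass. It passed without non-pregnant sow 7, at a difference of 1.17 (adjusted p = 0.0260), without pregnant sow 8, at 1.14 (adjusted p = 0.0382), and with array weights, at 1.08 (adjusted p = 0.0222). Array weights called 1697 of all probe sets higher in pregnant sows, against 947 in the main fit. Over all single-sow omissions the adjusted p of C1S ran from 0.0260 to 0.222.

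C2 is cut by C1s to give the catalytic subunit of the classical C3 convertase. It was 6.86, 6.04 and 7.03 in pregnant Landrace and 5.99, 6.25 and 6.66 in pregnant Yorkshire sows, against 5.58, 7.58 and 5.65 in non-pregnant Landrace and 5.69, 5.87 and 5.86 in non-pregnant Yorkshire sows. All pregnant values lay above all non-pregnant values except that of sow 7. The difference was 0.43 ± 0.31 over all sows (SE, limma adjusted p = 0.458) and 0.73 ± 0.19 without sow 7 (adjusted p = 0.0343). Without sow 7, 2.4% of all probe sets were higher in pregnant sows with no overlap of the groups.

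C3, the protein on which all pathways converge, varied most among the members, over 4.22 log2 units. It was 11.19, 9.88 and 10.61 in pregnant Landrace and 8.80, 10.09 and 10.10 in pregnant Yorkshire sows. It was 9.11, 12.35 and 8.95 in non-pregnant Landrace and 8.14, 8.51 and 8.83 in non-pregnant Yorkshire sows. Sow 7 lay 3.24 above the next non-pregnant sow and above every pregnant sow, while only pregnant sow 2 fell among the other non-pregnant values. By group mean the order was pregnant Landrace at 10.56 ± 0.65, non-pregnant Landrace at 10.14 ± 1.92, pregnant Yorkshire at 9.66 ± 0.75 and non-pregnant Yorkshire at 8.49 ± 0.35 (SD, n = 3 each), and none of the contrasts between status groups within a breed or breeds within a status passed the test. The pregnancy difference was 0.80 with a 95% confidence interval of -0.35 to 1.94 (limma adjusted p = 0.413). Without sow 7 it was 1.33, with an interval of 0.72 to 1.94 (adjusted p = 0.0159), and over all single-sow omissions its adjusted p ran from 0.0159 to 0.634.

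CFB encodes factor B, the protease zymogen of the alternative pathway, and lies next to C2 in the pig annotation. Both of its probe sets were dim. The one that stands for the gene ranged from 5.54 to 5.93 in pregnant and from 5.37 to 6.53 in non-pregnant sows, and the second one from 4.90 to 5.55 in pregnant and from 4.96 to 7.10 in non-pregnant sows. Sow 7 held both non-pregnant maxima, and the values of the other sows overlapped between the 2 groups. Their pregnancy differences were -0.04 ± 0.16 and -0.14 ± 0.29 (SE, limma adjusted p = 0.910 and 0.838) and changed sign, to 0.10 and 0.17, without sow 7.

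C5 begins the terminal pathway and releases the anaphylatoxin C5a. Its values of 3.59 to 3.88 in pregnant and 3.53 to 4.22 in non-pregnant sows were all below the lower quartile of their arrays. C5 was lower in pregnant than in non-pregnant Landrace sows, at 3.63, 3.67 and 3.59 against 3.96, 3.75 and 4.22, a difference of -0.35 that did not pass (limma adjusted p = 0.204). In Yorkshire sows the difference was 0.09 (adjusted p = 0.824). The interaction of -0.43 had an unadjusted p of 0.0312 and an adjusted p of 1.00 (limma), and 4.01% of all probe sets had an unadjusted p under 0.05 for it.

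C7 joins the growing pore after C6, and in the pig annotation lies 1 protein-coding gene away from it. The probe set that stands for C7 was 6.66, 6.60 and 6.96 in pregnant Landrace and 6.30 in each of the 3 pregnant Yorkshire sows. It was 6.48, 6.71 and 6.18 in non-pregnant Landrace and 6.18, 6.06 and 6.21 in non-pregnant Yorkshire sows. Within each status the Landrace values were the higher ones apart from non-pregnant sow 9. The pregnancy difference was 0.21 ± 0.09 (SE, limma adjusted p = 0.195), and 0.26 ± 0.09 without sow 7 (adjusted p = 0.0975). The second C7 probe set was dim, at 4.67 to 6.14 in pregnant and 5.25 to 6.28 in non-pregnant sows, with a pregnancy difference of -0.14 ± 0.19 (adjusted p = 0.740).

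**Figure D2:**
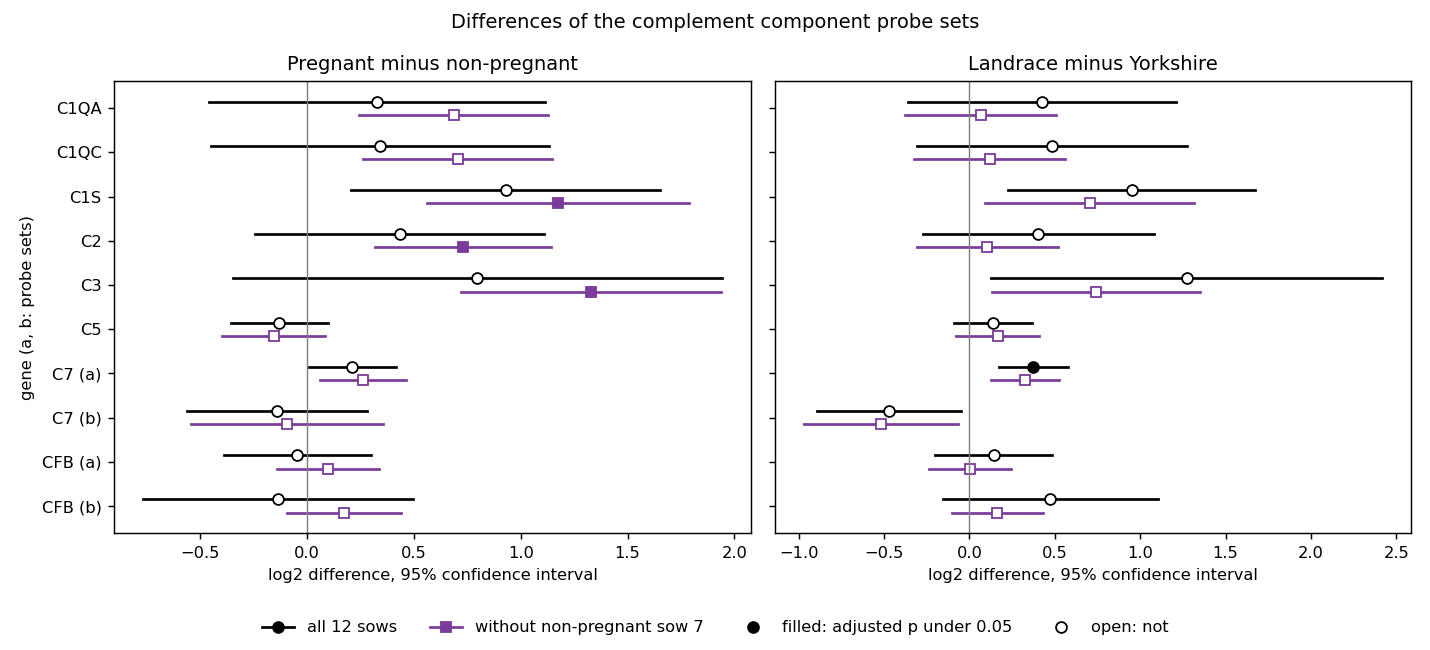
Log2 differences of the 10 complement component probe sets, pregnant minus non-pregnant (left) and Landrace minus Yorkshire (right), with 95% confidence intervals, over all 12 sows (black circles) and without non-pregnant sow 7 (purple squares). Filled symbols have a limma adjusted p under 0.05, which holds for C7 (a) between breeds over all sows and for C1S, C2 and C3 between pregnant and non-pregnant sows without sow 7.

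As a group, 0 of 10 member probe sets were called for pregnancy by limma, 2 of 10 (C1S and C7) had an unadjusted p under 0.05, against 23.2% of all probe sets, and 6 of 10 differences were positive. Their median difference was 0.27, against 0.01 over all probe sets. Without sow 7, 3 of 10 were called higher, against 4.61% of all probe sets, 8 of 10 were positive, and the median was 0.47. With sow 7 left out, 6 of 10 had an unadjusted p under 0.05, against 24.9% of all probe sets. Sow 7 was the highest of the 12 sows in 6 of 10 members, against 10.3% of all probe sets. The member counts and shares without it therefore do not compare like with like. For pregnancy in Yorkshire sows, in Landrace sows and for the interaction of both factors limma called 0 of 10, with 1 of 10 at an unadjusted p under 0.05 in each. The same 3 tests called 0.0%, 1.03% and 0.0% of all probe sets, with 15.3%, 15.5% and 4.01% at an unadjusted p under 0.05. Differences within Yorkshire, which do not involve sow 7, were positive for all 10, the largest being those of C1S at 1.20 (adjusted p = 0.262) and C3 at 1.17 (adjusted p = 0.531) and the smallest 0.09. Within Landrace the same genes differed by 0.66 (adjusted p = 0.581) and 0.42 (adjusted p = 0.866). Without sow 7, which leaves 2 non-pregnant Landrace sows, these were 1.14 (adjusted p = 0.247) and 1.53 (adjusted p = 0.119).

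The sows within a group also differed from one another in the same way for several members. Pregnant sows 6, 10 and 12 had the 3 highest pregnant values of C1QC, C1S and C2, while sows 2 and 8 lay lowest or next to lowest in those genes. Across the 12 sows C1QA and C1QC had Pearson's r of 0.987 (Spearman's rho 0.979), C1S and C3 0.911 (0.951) and C1QC and C2 0.970 (0.937). C3 and CFB had r of 0.559 (0.084), which was 0.04 without sow 7. These are descriptions of 3 and 1 of the 28 gene pairs, over sows that share groups and arrays.

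**Figure D3:**
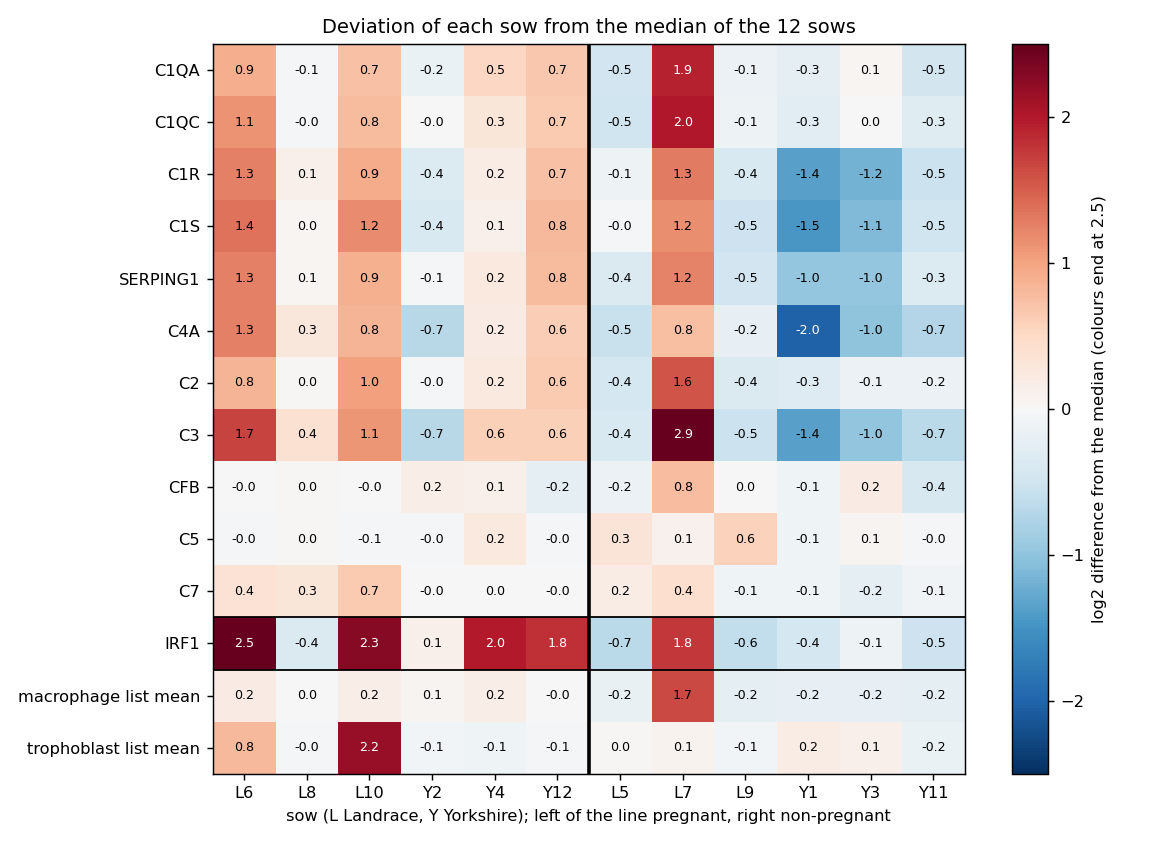
Log2 difference of each sow from the median of the 12 sows (colour and printed value) for the measured complement components, C1R, SERPING1 and C4A, the regulator IRF1 and the means of the macrophage and trophoblast marker lists, with pregnant sows left of the line and L for Landrace, Y for Yorkshire. Non-pregnant sow 7 stands 2.9 above the median in C3, and pregnant sows 6, 10 and 12 lie above it in every classical pathway gene shown.

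By the highest Pearson r with a member over the 12 sows, among 5094 non-member genes that were not dim, the nearest to C1S were C1R, the partner protease of the C1 complex (r = 0.992, rho = 0.972), SERPING1, the C1 inhibitor (r = 0.975, rho = 0.965), and C4A, the C1s substrate (r = 0.952, rho = 0.951). These were 0.994, 0.974 and 0.951 without sow 7. The nearest to C1QA were the MHC class II genes SLA-DQB1 (r = 0.977, rho = 0.958) and SLA-DQA1 (r = 0.969, rho = 0.881) and the transcription factor IRF8 (r = 0.965, rho = 0.860). For C1QC they were SLA-DQB1 (r = 0.983, rho = 0.923), the macrophage marker AIF1 (r = 0.979, rho = 0.951) and SLA-DQA1 (r = 0.976, rho = 0.930). C2 was nearest to another class II gene, SLA-DRA (r = 0.979, rho = 0.944), followed by SLA-DQB1 and SLA-DQA1. C3 was nearest to SLA-DQB1 (r = 0.969, rho = 0.902), the T cell marker CD2 (r = 0.954, rho = 0.881) and LOC106504372 (r = 0.953, rho = 0.958). C7 had another set, with SEMA4D (r = 0.930, rho = 0.832), ECSCR and CSRNP2. For the C1q chains, C2 and C3 all of these were 0.914 or higher without sow 7. Another macrophage marker, CD163, had r of 0.60 with both C1QA and C1QC (rho = -0.29 and -0.24). Without sow 7 its r with them was -0.76 and -0.77.

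The rest of the pathway was read from a list of 44 further complement genes, of which 27 had a probe set (43 probe sets, 22 not dim). For pregnancy 1 probe set was called higher and 2 lower, against 3.95% and 3.94% of all probe sets. Without sow 7 the counts were 8 and 3, against 4.61% and 4.58%. Sow 7 was the highest of the 12 sows in 16 of the 43, against 10.3% of all probe sets, so the same limit holds here. The median difference was 0.04 over all sows.

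In the classical pathway, C1R was 11.67, 10.53 and 11.33 in pregnant Landrace and 10.05, 10.59 and 11.13 in pregnant Yorkshire sows, against 10.28, 11.70 and 10.03 in non-pregnant Landrace and 9.05, 9.23 and 9.87 in non-pregnant Yorkshire sows. As with C1S, the Yorkshire groups of 3 sows did not overlap, a pattern whose share of all probe sets was not counted. Sow 7 had the highest C1R value, just above pregnant sow 6. The C1R difference was 0.86 ± 0.32 (SE, limma adjusted p = 0.123) and that of C4A 1.05 ± 0.31 (adjusted p = 0.0580). Without sow 7 they were 1.12 (adjusted p = 0.0168) and 1.25 (adjusted p = 0.0209). C4A was also called without pregnant sow 8 (adjusted p = 0.0361). Over all sows C4A was called with dim probe sets left out (adjusted p = 0.0403) and with array weights (adjusted p = 0.0163). C1R was called with array weights as well (adjusted p = 0.0217), a setting that called 1697 of all probe sets higher, against 947 in the main fit. Of the alternative pathway, CFD, the protease that activates factor B, differed by 0.70 ± 0.29 (adjusted p = 0.168), and by 0.91 without sow 7 (adjusted p = 0.0406). The terminal components C8A, C8B, C8G and C9 had 7 probe sets, all dim, with differences of -0.12 to 0.10 and 0 calls (limma), also 0 at an unadjusted p under 0.05.

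Among the soluble regulators, CPN1, the catalytic subunit of carboxypeptidase N, which inactivates the anaphylatoxins, fell in pregnant sows. It was 6.35, 7.20 and 6.54 in pregnant Landrace and 6.43, 6.44 and 6.78 in pregnant Yorkshire sows, against 8.21, 7.53 and 7.82 in non-pregnant Landrace and 7.61, 8.03 and 7.31 in non-pregnant Yorkshire sows. The groups did not overlap, as in 1.4% of all probe sets with lower values in pregnant sows. The difference was -1.13 ± 0.17 (SE, limma adjusted p = 0.00576), and that of the second CPN1 probe set -0.98 ± 0.18 (adjusted p = 0.0110). Both calls held whichever sow was omitted, at adjusted p of 0.0171 or less and 0.0309 or less. In non-pregnant sow 7 CPN1 was 7.53, within the range of the other non-pregnant sows. SERPING1 averaged 10.60 ± 0.52 for pregnant sows and 9.75 ± 0.81 for non-pregnant ones (n = 6 per group, SD), a difference of 0.84 (adjusted p = 0.119) that was 1.12 without sow 7 (adjusted p = 0.0123). SERPING1 was also called over all sows with array weights, at 1.03 (adjusted p = 0.0175), a setting that called more of all probe sets than the main fit. CLU, clusterin, which holds back assembly of the pore, differed by 0.58 ± 0.17 (adjusted p = 0.0640) with all 6 pregnant sows above the non-pregnant mean, and sow 7 was the lowest sow. It was called once non-pregnant sow 5 or pregnant sow 10 was omitted (lowest adjusted p = 0.0412), and over single-sow omissions its adjusted p reached 0.141. C4BPA, which holds back the classical convertase, differed by 0.49 (adjusted p = 0.263), and by 0.68 without sow 7 (adjusted p = 0.0465).

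Of the membrane regulators, none was called for pregnancy over all sows, and 3 of their 12 probe sets had an unadjusted p under 0.05, near the 23.2% of all probe sets. The more abundant CD59 probe set, for the inhibitor of pore assembly, differed by -0.46 ± 0.14 (limma adjusted p = 0.0659) and passed once pregnant sow 8, pregnant sow 12 or non-pregnant sow 7 was omitted (adjusted p = 0.0431, 0.0288 and 0.0345). Over all sows it passed with dim probe sets left out (adjusted p = 0.0470) and with array weights (adjusted p = 0.0152). Array weights called 1943 of all probe sets lower, against 945 in the main fit. THBD, thrombomodulin, differed by 0.56 ± 0.17 (adjusted p = 0.0641), and by 0.70 without sow 7 (adjusted p = 0.0101). The 3 CD46 probe sets, for the cofactor of C3b cleavage, differed by 0.05 to 0.21 (adjusted p = 0.316 to 0.883). Without sow 7 they differed by 0.15 to 0.31, and the one at 0.30 was called (adjusted p = 0.0197). Its groups did not overlap, as in 2.4% of all probe sets with higher values in pregnant sows. Among receptors 1 of 3 probe sets of VSIG4, a macrophage receptor for C3b, rose by 0.27 ± 0.07 (adjusted p = 0.0410). This probe set was dim, at 5.22 to 5.75 over the 12 sows. The other 2 differed by -0.20 and -0.10, and the omission of any single sow other than pregnant sows 10 and 12 and non-pregnant sow 7 ended the call, at adjusted p of at most 0.0950.

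**Figure D4:**
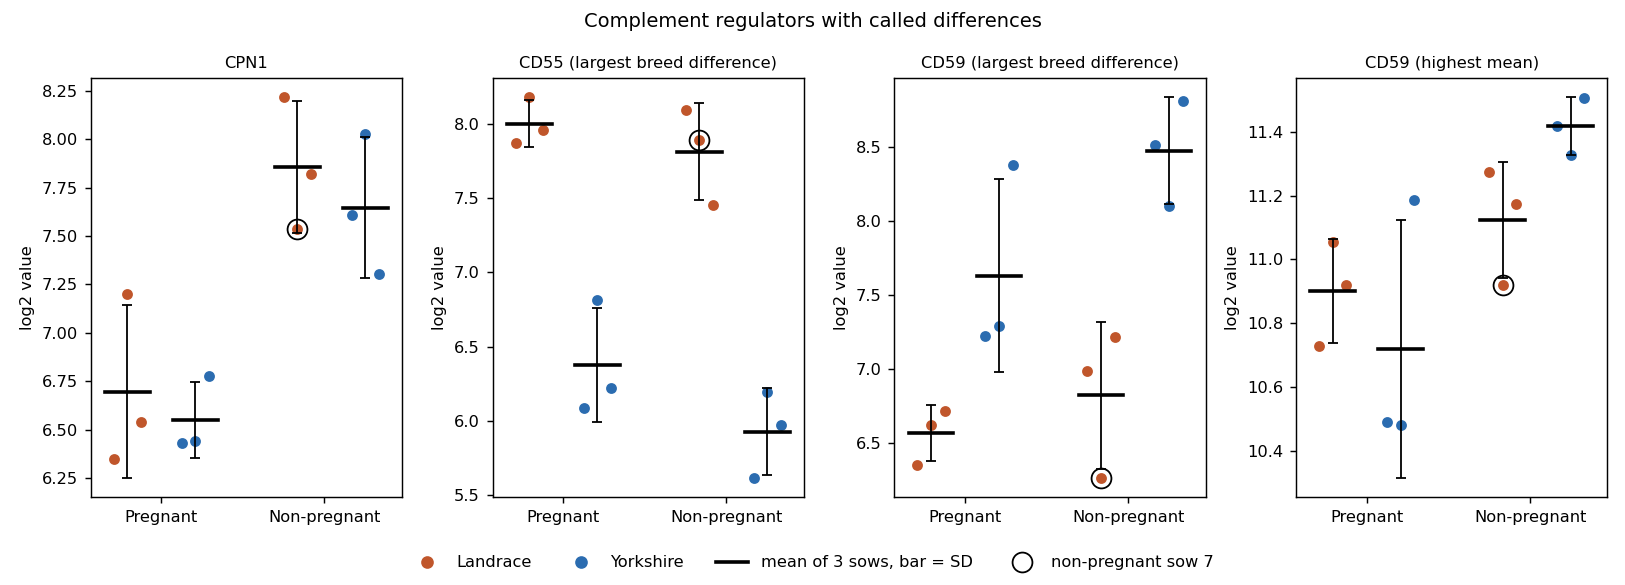
Log2 expression values of complement regulators with called differences, in each of the 12 sows, pregnant left of non-pregnant and Landrace left of Yorkshire, with mean and SD of 3 sows and a ring around non-pregnant sow 7. CPN1 is lower in all 6 pregnant sows. CD55 is shown by the probe set with the largest breed difference, which is higher in all 6 Landrace sows. The 2 CD59 probe sets differ in pattern between breeds.

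Transcription factors known to act on complement genes were read from a list of 9, of which 7 had a probe set. ESR1, the oestrogen receptor, fell by 0.58 ± 0.14 on the log2 scale (SE, limma adjusted p = 0.0257). The ESR1 groups did not overlap, as in 1.4% of all probe sets with lower values in pregnant sows. The nearest values were 7.26 in pregnant sow 8 and 7.28 in non-pregnant sow 7. Omitting pregnant sow 2, 6 or 10 or non-pregnant sow 5 or 9 ended this call, at adjusted p of at most 0.0654. IRF1, an interferon-induced factor, was 10.38, 7.54 and 10.17 in pregnant Landrace and 8.01, 9.88 and 9.71 in pregnant Yorkshire sows, against 7.23, 9.67 and 7.27 in non-pregnant Landrace and 7.46, 7.78 and 7.39 in non-pregnant Yorkshire sows. The sows high in IRF1 were pregnant sows 4, 6, 10 and 12 and non-pregnant sow 7, and the low pregnant sows 2 and 8 were those low in C1QC and C2. Its difference of 1.48 did not pass (adjusted p = 0.126). IRF1 was called when sow 7 was omitted, at 1.86 (adjusted p = 0.0373), or pregnant sow 8 (adjusted p = 0.0266). STAT3, CEBPB, NFKB1 and PGR differed by -0.11 to 0.11 and the 3 CEBPD probe sets by 0.23 to 0.31, none of them called (adjusted p = 0.398 to 0.887). Without sow 7 the CEBPD differences were 0.62, 0.55 and 0.54 (adjusted p = 0.0588, 0.0353 and 0.0691), 1 of them called, and that of CEBPB was 0.36 (adjusted p = 0.395).

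The means of some cell type marker lists, which were not themselves tested, differed between pregnant and non-pregnant sows, and those of others overlapped. The endothelial list mean, over 7 genes of which only KDR was dim, was 7.11 to 7.77 in pregnant and 6.37 to 6.95 in non-pregnant sows, and that of 6 stromal fibroblast genes, none dim, 10.39 to 10.98 and 9.97 to 10.36, both without overlap. The neutrophil list mean over 5 genes was 5.13 to 7.46 in pregnant and 4.15 to 6.001 in non-pregnant sows, with S100A12, ELANE and LTF dim. The upper non-pregnant value was that of sow 7, and the other 5 non-pregnant sows had 4.15 to 4.49, below every pregnant sow. The endometrial gland list mean, over 4 genes of which none was dim, was 10.6 to 11.1 in pregnant sows and 10.3 to 10.7 in non-pregnant sows other than sow 7, which had 11.9. Only 1 of these 4 genes was highest in sow 7. The hepatocyte list, over 3 genes of which ALB and TTR were dim, was 5.61 to 5.76 and 5.39 to 5.91. The trophoblast list mean over 5 genes, of which 4 were dim, was 5.26 to 7.55 and 5.21 to 5.55. IFNG, which the pig conceptus expresses at this stage, was 8.21 in pregnant sow 6 and 12.65 in pregnant sow 10, and 3.61 to 4.41 in the other 10 sows. These 2 sows had the 2 highest pregnant values of C1QA, C1QC, C1S, C2 and C3. The part of these cell types in the differences was not tested.

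Between breeds, C7 was the single member called. It averaged 6.60 ± 0.26 in Landrace sows and 6.22 ± 0.09 in Yorkshire sows (SD, n = 6 each), a difference of 0.37 with a 95% confidence interval of 0.17 to 0.58 (limma adjusted p = 0.0390), in a comparison that called 2.22% of all probe sets higher in Landrace. Omission of any single sow other than pregnant sow 8 and non-pregnant sow 9 ended the call, at adjusted p of at most 0.0817. The second C7 probe set went the other way, at 5.32 ± 0.34 in Landrace and 5.79 ± 0.39 in Yorkshire sows, a difference of -0.47 (adjusted p = 0.190), and the mean of both probe sets differed by -0.05 (adjusted p = 0.862). The 2 probe sets had r of -0.449 with each other over the 12 sows. Within pregnant and within non-pregnant sows limma called 0 of 10 members between breeds, with 2 and 3 at an unadjusted p under 0.05, where 0.733% and 1.04% of all probe sets were called and 12.2% and 14.2% had such a p.

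C3 was 1.27 higher in Landrace, with a 95% confidence interval of 0.13 to 2.42 (limma adjusted p = 0.194), and 0.74 higher without sow 7 (adjusted p = 0.172). C1S was 0.95 higher (adjusted p = 0.126), and 0.71 without sow 7 (adjusted p = 0.196). C1S was called between breeds without pregnant sow 8, at 1.16 (adjusted p = 0.0495). The breed differences of C1QA, C1QC and C2 were 0.42, 0.48 and 0.40 (adjusted p = 0.573, 0.513 and 0.521), and 0.07, 0.12 and 0.11 without sow 7. Over all sows 9 of 10 member probe sets were positive between breeds and 4 had an unadjusted p under 0.05, against 20.2% of all probe sets, with a median of 0.41 against 0.01. Without sow 7 the median was 0.14 and limma called 0, again with 4 of 10 at an unadjusted p under 0.05, against 1.91% of all probe sets called higher and 18.6% at such a p.

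Of the C1s partners, C1R and C4A were 0.93 and 1.00 higher in Landrace (limma adjusted p = 0.116 and 0.0856), and 0.67 and 0.80 without sow 7. Both were called with array weights, at 0.95 and 1.04 (adjusted p = 0.0493 and 0.0434). The membrane regulators CD55 and CD59, which are not components, had probe sets called between breeds. CD55, which speeds the decay of the C3 convertases, was higher in Landrace in 3 of 5 probe sets, by 1.75, 1.38 and 0.74 (limma adjusted p = 0.000152, 5.88e-05 and 0.00489). Its probe set with the largest difference was 7.87, 8.18 and 7.95 in pregnant Landrace and 8.09, 7.89 and 7.45 in non-pregnant Landrace sows, against 6.09, 6.81 and 6.22 in pregnant Yorkshire and 5.62, 6.20 and 5.97 in non-pregnant Yorkshire sows. All 6 Landrace sows lay above all 6 Yorkshire sows, as in 1.24% of all probe sets. The called CD55 probe set at 1.38 was dim. The other 2 CD55 probe sets differed by 0.66 and 0.56 (adjusted p = 0.0870 and 0.104), and the one at 0.66 had the highest mean of the 5. All 3 calls held whichever sow was omitted, at adjusted p of 0.0136 or less. 1 of 2 CD59 probe sets was lower in Landrace, at 6.69 ± 0.36 in Landrace and 8.05 ± 0.66 in Yorkshire sows, a difference of -1.36 (adjusted p = 0.00727) that was called whichever sow was omitted, among the 2.93% of all probe sets called lower in Landrace. The other CD59 probe set differed by -0.06 (adjusted p = 0.868). CD93, a receptor once linked to C1q, was higher in Landrace by 0.71 in 1 of 2 probe sets (adjusted p = 0.0309), a call ended by the omission of any single sow other than pregnant sows 2, 6 and 8, at adjusted p of at most 0.0714. PGR, the progesterone receptor, differed by -0.40 ± 0.07 between Landrace and Yorkshire sows (adjusted p = 0.00906). The 3′ minus 5′ difference of the GAPDH control probes, a measure of RNA quality, had a lower mean in Landrace than in Yorkshire by all 3 control pairs, at 0.23 and 0.33, 1.07 and 1.49, and 0.05 and 0.23. The breeds did not overlap in 1 of these pairs. In that pair pregnant Landrace sows had 1.147 to 1.248 and non-pregnant Landrace sows 0.8685 to 1.036, the lowest being sow 7. Its pregnant and non-pregnant Yorkshire sows overlapped, as did both statuses within Landrace in the other pairs. The part of RNA quality in the breed and pregnancy differences was not tested.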

How the data were processed

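Endometrial RNA of 12 sows was hybridised to Affymetrix porcine arrays, 1 per sow. The deposited log2 values are the authors'. The submitters' processing notes name RMA, affy and limma and give no versions. RMA makes array distributions alike, so differences are relative to other transcripts of the same array, and understate those of dim probe sets; array number limits precision. Of 24123 probe sets, 124 manufacturer controls were left out. Symbols came from the platform annotation (10069 tested probe sets had 1 symbol, 198 several, 13732 none). Genome and promoter sequences were not used here.

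Differences were fitted with limma 3.58.1 in R 4.3.3, with pregnancy and breed as additive terms (9 residual degrees of freedom) and as 4 groups for contrasts within breed or status and the interaction (8 residual degrees of freedom). p-values are two-sided, Benjamini-Hochberg adjusted over 23999 probe sets, and called under 0.05. The procedure was tested on simulated data. Every member probe set is named, whether called or not. Of the other complement genes those called, and 11 further ones where measured, were to be named, along with listed transcription factors and, for each member that was not dim, the 3 genes most like it. C4BPA, CFD, THBD and the terminal components were named after their values were seen. Alternatives were another normalization, array centring, leaving out dim probe sets, array weights, a robust prior with an intensity trend, no covariate, a stricter threshold and leaving out sows. The members and lists were chosen with earlier results of these data known.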

Additional observations from a re-analysis of the deposited data

Results flagged for a closer look

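Within each group of 6 sows, the highest or lowest value was set against the nearest other value for the 10 member probe sets and for listed regulators, 80 groups in all, and 15 held a sow far from the rest. Chance flags about 1 in 20 groups, and probe sets of the same sow are not independent. In 13 of the 15 this was non-pregnant sow 7, as the highest of the non-pregnant sows. Among the members its log2 values were 10.31 for C1QA, 11.43 for C1QC, 7.581 for C2, 12.35 for C3 and 7.095 for the second CFB probe set. Among regulators they were 11.31 for SERPING1, 10.22 and 6.682 for 2 CD46 probe sets, 8.771 and 7.346 for 2 VSIG4 probe sets, 9.666 for IRF1, and 10.94 and 8.947 for 2 CEBPD probe sets. The macrophage, T and NK cell and endometrial gland marker means of this sow, 8.23, 6.99 and 11.9, were the highest of the 12 sows, and its neutrophil mean of 6.001 was the highest of the non-pregnant sows. All 7 macrophage and all 6 T and NK cell genes were highest in sow 7, but only 1 of the 4 gland genes was. The part of these marker lists in the flagged values was not tested. The other 2 were dim probe sets, C5 at 3.885 in pregnant sow 4 and the second C7 probe set at 6.275 in non-pregnant sow 11.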

How the results depend on the processing

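The 0 member calls for pregnancy were also found with cyclic loess, array centring, dim probe sets left out, a robust prior with an intensity trend, no covariate and a threshold of 0.01. With array weights 1 member was called higher, without non-pregnant sow 7 and pregnant sow 12 it was 2, and leaving out each sow in turn gave 0 to 3. For breed, 0 members were called without a covariate, at the threshold of 0.01 and without sows 7 and 12, and 0 to 2 when single sows were left out. Member calls within breed or status and for the interaction were 0 whichever sow was left out. Over all probe sets, calls for pregnancy numbered 1697 higher and 1943 lower with array weights, 579 and 586 without a covariate, 191 and 132 at 0.01, 1492 and 1721 without sows 7 and 12, and 514 to 1201 and 437 to 1425 with single sows left out. Calls for breed numbered 312 higher without a covariate, 137 higher and 228 lower at 0.01, 439 lower without sows 7 and 12, and 332 to 613 and 465 to 729 with single sows left out. Alternatives for the other complement genes were added after seeing the data. For pregnancy they gave 0 called higher after centring, 3 with dim probe sets left out, 6 higher and 4 lower with array weights, 0 and 1 at 0.01, 8 and 4 without sows 7 and 12, and 0 to 8 and 2 to 3 with single sows left out. For breed they gave 3 to 4 higher and 1 to 2 lower with single sows left out, and 2 lower without sows 7 and 12.

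The called breed difference of C7 changed sign, to -0.0489 as the mean of its probe sets. The other differences that changed sign were not called. For pregnancy the CFB probe set that stands for the gene was 0.0265 with array weights, -0.128 to 0.0969 with single sows left out, turning without non-pregnant sow 3 (0.00557) or 7, and 0.157 without sows 7 and 12. The second CFB probe set was 0.0198, -0.301 to 0.174 and 0.194 in the same settings. For breed the first of these was -0.00127 with array weights and -0.0579 without sows 7 and 12. A CD55 probe set turned for pregnancy, at -0.112 to 0.0985 with single sows left out and 0.111 without sows 7 and 12. For breed, a CD59 probe set was 0.0144 with array weights, -0.137 to 0.0201 with single sows left out and 0.110 without sows 7 and 12, and a CPN1 probe set -0.0138 to 0.230 with single sows left out. The causes were not tested. No paired analysis was possible because the replicate numbers are not shared between the groups.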
